A study of Mus musculus with 9 samples.

Results

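Immediate early genes are transcribed within minutes of a stimulus, without new protein synthesis, and most of them encode transcription factors. The 10 described here were chosen by name, but with earlier results of these data known, so the choice was not blind to the data. They are Fos and Fosb, their partners Jun, Junb and Jund, the zinc finger factors Egr1, Egr2 and Egr3, the stress-induced factor Atf3, and Ier3. They are 10 of the 36413 distinct names on the array, measured by 10 probes that fill 19 of 59305 non-control spots, because the Fos probe is printed 10 times. Ier3 encodes a small protein of cell survival and ERK signalling and is not a transcription factor. It is kept here because it is an early response gene. The study hybridised Cy3-labelled total RNA of macrophages from C57BL/6J mice to 9 single-colour Agilent arrays, 3 for each of 3 groups. F4/80high and F4/80low tumour-associated macrophages (TAMs) came from a fibrosarcoma and were divided by F4/80, the surface protein encoded by Adgre1. Macrophages of the peritoneal exudate (PECs) were the control. The labels state no allele, transgene, treatment, age or sex, no other marker of the gates, and neither the origin of the tumour nor any agent used to recruit the PECs. Arrays of a group are called biological replicates without a statement that each came from its own animal, so the p-values cover only the spread among these arrays, and part of that spread may be technical.

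Fos and Jun proteins pair through leucine zippers to form AP-1, which binds promoters and enhancers of genes for growth, survival and inflammation. In macrophages, signals such as lipopolysaccharide, growth factors and cell stress reach these genes through MAP kinases, serum response factor and NF-kappaB, and their RNAs are short-lived. The handling of tissue can also start their transcription. How the tumours and peritoneal cells were brought into suspension is not given in the sources used here, so tumour, tissue of origin and handling cannot be told apart in a comparison of TAMs with PECs. In these bulk samples, fewer cells of a type and less RNA per cell cannot be told apart either.

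The proximal promoters were searched for short sequence motifs, and 4 are printed, from genes with different patterns across the groups. Whether a motif has a part in a pattern was not tested. Fos was highest in F4/80low TAMs, Jun lowest in F4/80high TAMs, Atf3 lower in both TAM subsets than in PECs, and Ier3 higher in both. Each sequence is the 250 bases before the transcription start in RefSeq, build GRCm38.p6, 5′ to 3′ on the strand of the gene, with matched motifs in capitals. The Fos window is chr12:85473640-85473889 (plus strand), the Jun window chr4:95052223-95052472 (minus strand), the Atf3 window chr1:191183334-191183583 (minus strand) and the Ier3 window chr17:35821463-35821712 (plus strand).
Fos: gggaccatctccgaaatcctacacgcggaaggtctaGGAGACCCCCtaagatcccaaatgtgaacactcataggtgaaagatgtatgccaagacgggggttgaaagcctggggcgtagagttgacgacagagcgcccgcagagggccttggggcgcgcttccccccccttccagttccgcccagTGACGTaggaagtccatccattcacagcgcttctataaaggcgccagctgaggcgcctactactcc
Jun: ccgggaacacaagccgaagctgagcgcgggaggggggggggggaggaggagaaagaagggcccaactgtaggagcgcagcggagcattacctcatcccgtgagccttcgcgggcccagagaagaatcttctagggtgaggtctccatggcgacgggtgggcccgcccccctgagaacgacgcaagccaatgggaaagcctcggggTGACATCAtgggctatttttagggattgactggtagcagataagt
Atf3: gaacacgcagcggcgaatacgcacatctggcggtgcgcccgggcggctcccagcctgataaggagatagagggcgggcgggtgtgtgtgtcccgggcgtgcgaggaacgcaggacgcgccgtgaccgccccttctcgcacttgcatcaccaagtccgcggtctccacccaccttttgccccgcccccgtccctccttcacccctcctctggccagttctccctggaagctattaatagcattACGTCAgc
Ier3: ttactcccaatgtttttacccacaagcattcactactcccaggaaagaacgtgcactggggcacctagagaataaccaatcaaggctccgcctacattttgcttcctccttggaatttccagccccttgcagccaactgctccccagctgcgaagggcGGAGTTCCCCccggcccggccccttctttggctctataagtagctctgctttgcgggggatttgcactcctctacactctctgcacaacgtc

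In the Fos window the capitals mark an NF-kappaB motif at −214 to −205 and a cyclic AMP response element core at −66 to −61, counted from the start. Jun holds a related 8-base element at −45 to −38, Atf3 the core on its other strand at −8 to −3, and Ier3 an NF-kappaB motif at −92 to −83. A single site of Egr2 is shown as well, because Egr2 gave the largest measured fall in both TAM subsets. It is a CArG box, the motif of serum response factor, upstream of 3 of the 5 annotated starts. The box is in capitals within the 30 bases printed, chr10:67537787-67537816 (plus strand, GRCm38.p6).
Egr2: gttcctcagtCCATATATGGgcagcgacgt
The motifs searched on both strands were the core TGACGT, the related element TGACNTCA, AP-1 as TGANTCA, the EGR motif GCGNGGGCG, and CArG and NF-kappaB in their usual degenerate forms. The core and the related element can overlap. Among 32851 promoter windows of the mouse table, 6.47% held the core, 7.49% the related element, 6.75% the AP-1 motif, 4.70% the EGR motif, 1.47% a CArG box and 7.25% an NF-kappaB motif. Fosb had an EGR and an NF-kappaB motif, and Junb and Jund had no match in their windows. In an Egr2 window where the printed box lies at −72 to −63, a core follows at −56 to −51. The printed stretch ends inside that core. Windows of other Egr2 starts held a different CArG box and overlapping NF-kappaB motifs. Windows of 8 of the 10 genes were searched, and Egr1 and Egr3 are named only. A match is a run of letters and shows neither binding nor activity.

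Levels below are log2 processed intensities relative to the 75th percentile of non-control spots on the same array, so 0 is that percentile and each unit is a doubling. They were compared with limma on all 9 arrays in a single fit, two-sided, with p-values adjusted by Benjamini-Hochberg over 16461 genes and a threshold of 0.05. A gene entered when every array of some group, all 3, had its probe well above background. This held for 9 of the 10 members, of which Egr1 passed only through the TAM arrays. Egr3 was not well above background on any array and was not tested. Levels of different probes are not set against each other, since each probe has its own response.

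Signal well above background was found in 36.1% to 38.3% of the spots of an array, controls left out, and none was saturated. The sort showed in Adgre1, at 5.94 ± 0.26 in F4/80high TAMs, 2.89 ± 0.50 in F4/80low TAMs and 5.88 ± 0.25 in PECs (mean ± SD, n = 3 each). Of 8 macrophage markers, all 8 were above background on every array of F4/80high TAMs and PECs, and 7 on every array of F4/80low TAMs, where Mertk was not above background. Their summed level, on the linear scale, ranged from 849 to 1301 in F4/80high TAMs, from 570 to 850 in F4/80low TAMs and from 947 to 1143 in PECs. With Adgre1, the sorted marker, among them, 5 of the 8 were higher and 0 lower in F4/80high than in F4/80low TAMs (median 1.93). In F4/80low TAMs 1 was higher and 4 lower than in PECs (median −1.06). Of all genes 18.6% were higher and 14% lower in F4/80high than in F4/80low TAMs (median 0.08). For F4/80low TAMs against PECs these shares were 22.7% and 29.2% (median −0.09), and for F4/80high TAMs against PECs 25% and 28% (median 0.00). Marker RNAs of other cell types differed between the groups as well. Of 10 neutrophil markers, 5 were above background on every F4/80high array, all 10 on every F4/80low array and 3 on every PEC array. Their summed level, on the linear scale, ranged from 228 to 332 in F4/80high TAMs, from 1832 to 7169 in F4/80low TAMs and from 123 to 168 in PECs. Cxcr2 was not above background in F4/80high TAMs or PECs, and Retnlg, Mpo and Ngp were not in PECs. All 10 were tested. Against PECs, 9 were higher and 0 lower in F4/80low TAMs, and 3 higher and 0 lower in F4/80high TAMs. Between the subsets 0 were higher and 7 lower in F4/80high TAMs. Medians, with genes at background entered at the dimmest signal called well above background, were 6.94, 1.36 and −6.38. Genes that entered through F4/80low TAMs only had calls partly set by the filter. T and NK cell markers summed to 20.0 to 24.0 in F4/80high TAMs, 45.4 to 63.9 in F4/80low TAMs and 14.2 to 20.7 in PECs, and 3, 8 and 3 of 10 were above background throughout those groups. Of the 8 tested, 7 were higher and 0 lower in F4/80low TAMs than in PECs (median 2.35, with the same limit). In F4/80high TAMs 1 was higher and 0 lower than in PECs, and 0 higher and 6 lower than in F4/80low TAMs (medians 0.47 and −2.04). Dendritic cell markers summed to 34.8 to 43.6 in F4/80high TAMs, 33.3 to 79.5 in F4/80low TAMs and 0.468 to 0.848 in PECs. Of the 6, 2 were above background on every array of each TAM subset. Not above background on any array were 4 in F4/80high TAMs (Flt3, Xcr1, Clec9a and Cd209a), 3 in F4/80low TAMs (Zbtb46, Xcr1 and Cd209a) and 5 in PECs. Fibroblast and stroma markers summed to 210 to 319 in F4/80high TAMs, 41.5 to 62.5 in F4/80low TAMs and 193 to 227 in PECs. Of the 6 tested, 1 was higher and 1 lower in each comparison, beside the shares of all genes given above. Their median log2 fold changes were 0.002 for F4/80high TAMs against PECs, −0.012 for F4/80low TAMs against PECs and −0.006 between the subsets. A linear sum is weighted to the brightest genes. Lum, Pdgfra and Pdgfrb were not above background in any group, nor was Col1a1 in F4/80high TAMs or Col3a1 in PECs. In each group 1 of 4 endothelial markers and 0 of 5 B cell markers were above background on all arrays. The part of these cells in the differences below was not tested.

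**Figure D1:**
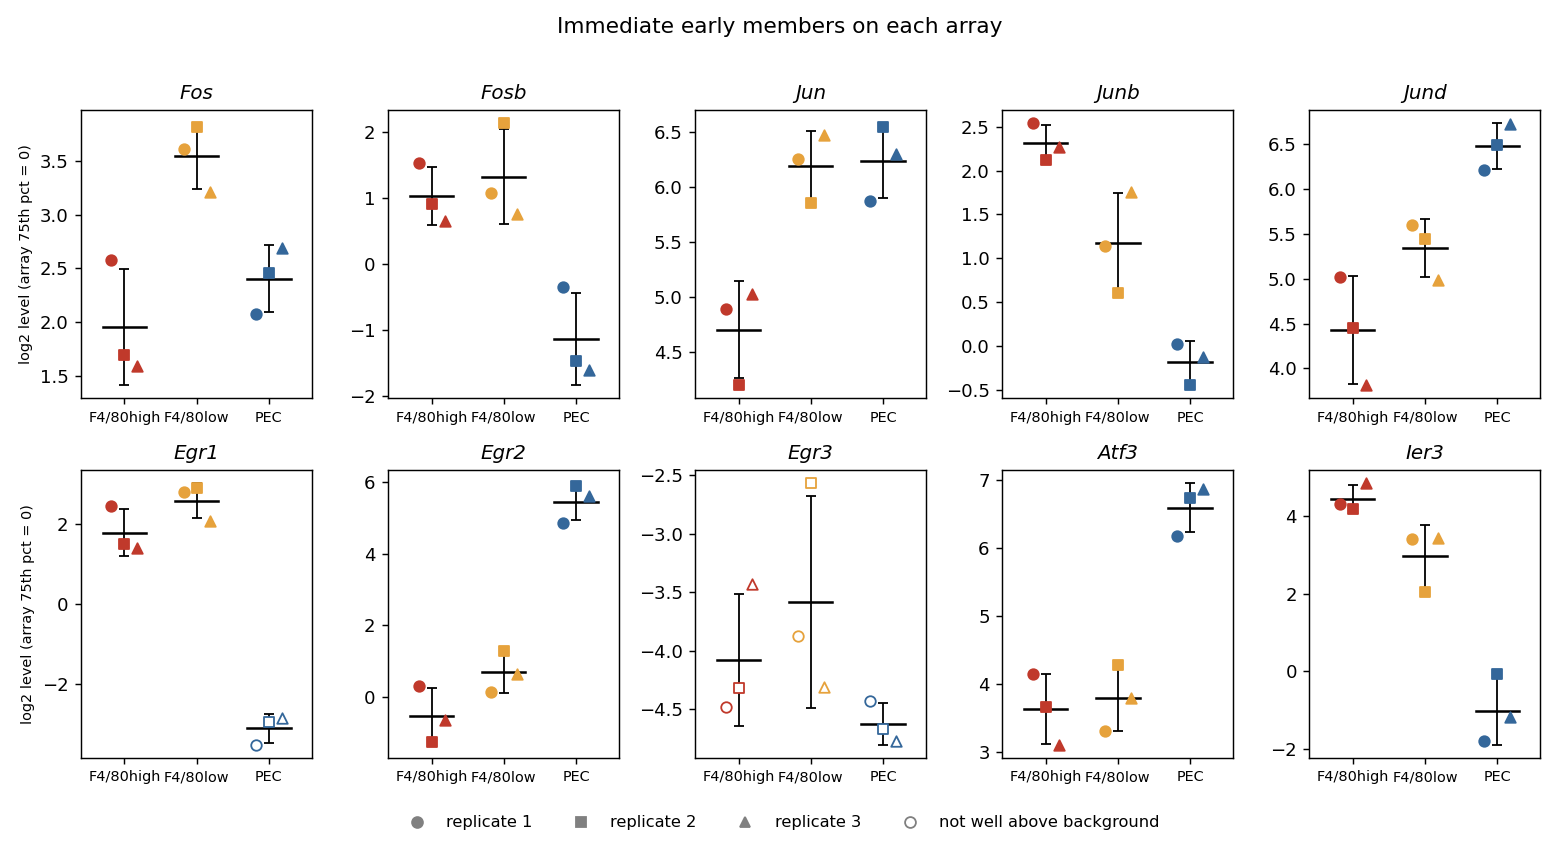
Log2 level of each of the 10 genes on each array (vertical axis, 0 at the 75th percentile of that array, each panel with its own scale), with the bar at the group mean and whiskers of 1 SD over 3 arrays. Egr1 and Ier3 stand higher in both TAM subsets than in PECs, Egr2, Atf3 and Jund lower, and Egr3 is not well above background on any array.

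Immediate early genes differed from PECs in both directions in both TAM subsets. Against PECs, F4/80high TAMs had higher Fosb, Junb, Egr1 and Ier3 and lower Jun, Jund, Egr2 and Atf3, and F4/80low TAMs had higher Fos, Fosb, Junb, Egr1 and Ier3 and lower Jund, Egr2 and Atf3. So 8 of the 9 tested passed in F4/80high TAMs, 4 higher and 4 lower, where 53.1% of all genes passed, 25% higher and 28% lower. In F4/80low TAMs 8 passed, 5 higher and 3 lower, where 51.9% of all genes passed, 22.7% higher and 29.2% lower. The arrays of TAMs and PECs did not overlap for 8 of the 9 in each comparison, against 65.2% of all genes for F4/80high TAMs and 59.3% for F4/80low TAMs. The median log2 fold change of the 9 was −0.45 for F4/80high TAMs and 1.14 for F4/80low TAMs, while all genes had medians of 0.00 and −0.09. Both comparisons share the PEC arrays, and Egr1, which entered only through its TAM level, counts in both. Among genes above background on all arrays of both groups compared, 7 of 8 members passed in each comparison. Of these, 3 were higher and 4 lower in F4/80high TAMs, and 4 higher and 3 lower in F4/80low TAMs. Of all such genes, 6509 of 13269 and 6309 of 13277 passed. PEC replicate 1 is the only PEC array on the slide of the TAMs. With slide as a block, 7 of the 9 members passed in F4/80high TAMs against PECs, 3 higher and 4 lower. In F4/80low TAMs 6 passed, 4 higher and 2 lower. Of all 16461 genes, 5631 and 4904 passed with that block. Between the subsets 5 of the 9 passed, 2 higher and 3 lower in F4/80high TAMs, where 32.6% of all genes passed, 18.6% higher and 14% lower. With the replicate number as a block 3 passed, 1 higher and 2 lower, and leaving out 1 array gave 3 to 6. Between the subsets the arrays did not overlap for 4 of the 9, against 46.7% of all genes, and the median of the 9 was −0.80, against 0.08 over all genes.

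**Figure D2:**
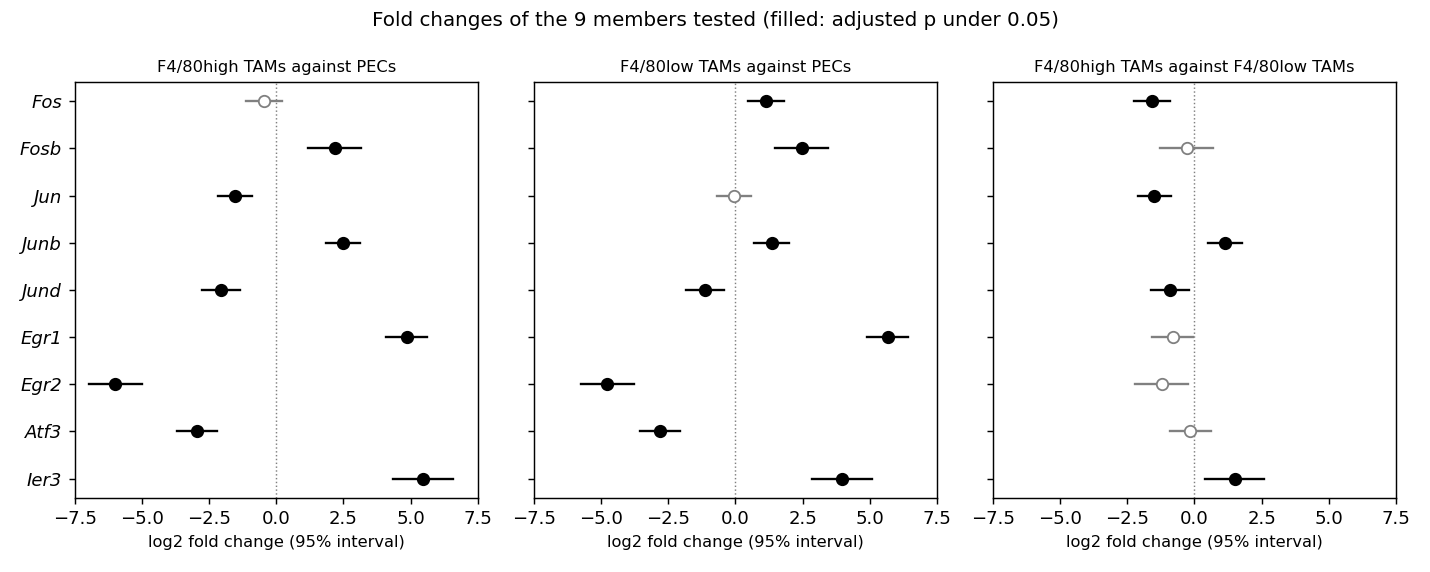
Log2 fold change (horizontal axis) of the 9 tested genes in 3 comparisons, each as the first group named minus the other, with 95% intervals from limma. Filled points passed an adjusted p of 0.05: 8 in each comparison with PECs and 5 between the TAM subsets.

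Fos encodes the founding member of its family and is the gene most used as a mark of recent stimulation. Its probe lies at chr12:86817900-86817959 (mm9, the build of the array files), and 2 of its spot readings carried an outlier mark and were left out. It stood at 2.58, 1.69 and 1.60 in F4/80high TAMs, at 3.61, 3.81 and 3.22 in F4/80low TAMs and at 2.07, 2.45 and 2.69 in PECs. F4/80low TAMs were highest on all 3 arrays and overlapped neither other group, while the F4/80high and PEC arrays overlapped. Fos in F4/80low TAMs was 2.20-fold that of PECs (log2 fold change 1.14, SE 0.30, limma adjusted p 0.0107). With arrays centred on the median in place of the 75th percentile, this became 0.67 and did not pass (limma adjusted p 0.162). F4/80high TAMs did not pass against PECs, at −0.45 (95% interval −1.12 to 0.22, limma adjusted p 0.227), and without F4/80high replicate 1 the value was −0.76 (limma adjusted p 0.0388). Against F4/80low TAMs, Fos was 3.01-fold lower in F4/80high TAMs (log2 fold change −1.59, SE 0.30, limma adjusted p 0.00328).

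Fosb, the other Fos family member here, has a probe at chr7:19888168-19888227 (mm9). Its levels were 1.53, 0.92 and 0.66 across F4/80high TAMs, 1.07, 2.13 and 0.77 across F4/80low TAMs and −0.34, −1.47 and −1.61 across PECs. Every TAM array lay above every PEC array, and the TAM subsets overlapped. Fosb was 4.51-fold higher in F4/80high TAMs than in PECs (log2 fold change 2.17, SE 0.44, limma adjusted p 0.00269). In F4/80low TAMs it was 5.52-fold higher than in PECs (log2 fold change 2.46, SE 0.44, limma adjusted p 0.00157). PEC replicate 1, the highest of its group, is the only PEC array on slide 1, which holds all TAM arrays. A fit within slide 1 therefore has 1 PEC array, assumed to vary like the TAM groups, and the slide block rests on the same array for its contrast. With slide as a block the first of these was 1.38 and did not pass (limma adjusted p 0.0775, or 0.110 within slide 1 alone), and within slide 1 alone the F4/80low value was 1.67 (limma adjusted p 0.0711). With normexp background correction the log2 fold changes were 1.12 and 1.28, both past the threshold. The subsets differed by −0.29 (95% interval −1.28 to 0.70, limma adjusted p 0.655).

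Jun encodes c-Jun, the partner of Fos that is phosphorylated by the JNK kinases, and is read by a probe at chr4:94716928-94716987 (mm9). It stood at 4.89, 4.20 and 5.03 in F4/80high TAMs, at 6.25, 5.86 and 6.47 in F4/80low TAMs and at 5.88, 6.55 and 6.30 in PECs. F4/80high TAMs were lowest on all 3 arrays, and the other groups overlapped. Jun was 2.90-fold lower in F4/80high TAMs than in PECs (log2 fold change −1.53, SE 0.28, limma adjusted p 0.00148), and within slide 1 alone, with its single PEC array, it was −1.17 and did not pass (limma adjusted p 0.0639). Against F4/80low TAMs it was 2.81-fold lower (log2 fold change −1.49, SE 0.28, limma adjusted p 0.00332). F4/80low TAMs and PECs differed by −0.05 (95% interval −0.67 to 0.58, limma adjusted p 0.900).

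Junb encodes an AP-1 subunit that can stand in for or oppose c-Jun, depending on the gene, and its probe lies at chr8:87501881-87501940 (mm9). It gave a full order of the groups: 2.54, 2.12 and 2.27 across F4/80high TAMs, 1.15, 0.61 and 1.75 across F4/80low TAMs and 0.03, −0.44 and −0.12 across PECs. No array of one group overlapped another group. Junb was 5.60-fold higher in F4/80high TAMs than in PECs (log2 fold change 2.49, SE 0.28, limma adjusted p 9.26e-05). It was 2.54-fold higher in F4/80low TAMs than in PECs (log2 fold change 1.35, SE 0.28, limma adjusted p 0.00384), which with slide as a block was 1.14 (limma adjusted p 0.0684), within slide 1 alone 1.14 (limma adjusted p 0.0950), and with normexp and median centring 0.80 and 0.87, both past the threshold. Between the subsets it was 2.20-fold higher in F4/80high TAMs (log2 fold change 1.14, SE 0.28, limma adjusted p 0.0135).

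Jund encodes the subunit that resting cells hold most steadily, and its probe lies at chr8:73224436-73224495 (mm9). Here its order was the reverse of that of Junb. It stood at 5.02, 4.45 and 3.81 in F4/80high TAMs, at 5.60, 5.45 and 4.98 in F4/80low TAMs and at 6.21, 6.49 and 6.72 in PECs. All PEC arrays lay above all TAM arrays, and the TAM subsets overlapped, with F4/80high replicate 1 just above F4/80low replicate 3. Jund was 4.13-fold lower in F4/80high TAMs than in PECs (log2 fold change −2.05, SE 0.31, limma adjusted p 0.000509). In F4/80low TAMs it was 2.19-fold lower (log2 fold change −1.13, SE 0.31, limma adjusted p 0.0133), and this did not pass with slide as a block (−0.87, limma adjusted p 0.171), within slide 1 alone (limma adjusted p 0.216) or without PEC replicate 3 (−1.01, limma adjusted p 0.0523). The difference between subsets lay just inside the threshold (log2 fold change −0.91, SE 0.31, limma adjusted p 0.0481). With the replicate number as a block it lay just outside (limma adjusted p 0.0555). It did not pass without F4/80high replicate 2 or 3, or without F4/80low replicate 1 or 2, where it ranged from −0.93 to −0.61, nor with median centring (−0.60, limma adjusted p 0.246), normexp (−0.94, limma adjusted p 0.0680), no filter on dim probes (limma adjusted p 0.113) or the TAM arrays fitted alone (limma adjusted p 0.0811).

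Egr1, on chromosome 18, encodes the zinc finger factor that growth factors and toll-like receptors induce through serum response factor. Its levels were 2.44, 1.48 and 1.38 in F4/80high TAMs and 2.78, 2.87 and 2.07 in F4/80low TAMs. PEC arrays read −3.50, −2.95 and −2.83 and were not well above background, so the comparison with PECs is a lower bound, with the PEC arrays entered at the dimmest signal called well above background on the same array. Egr1 was at least 20.1-fold higher in F4/80high TAMs than in PECs and at least 35.0-fold higher in F4/80low TAMs. The limma adjusted p of 5.59e-06 and 3.42e-06 are those of the fitted values, which use the PEC readings at background. Egr1 entered only through its TAM arrays, so these calls were partly set by the filter. With normexp background correction, which lifts dim signals, the log2 fold changes were 2.07 and 2.58, both past the threshold. In the deposited table of log2 values they were 2.14 and 2.88. These values are smaller than the bounds, which hold for the processed intensities only. The subsets overlapped and differed by −0.80 (95% interval −1.57 to −0.04, limma adjusted p 0.101). Without F4/80high replicate 1 that value was −1.14 and passed (limma adjusted p 0.0264).

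Egr2 encodes a close relative of Egr1 that binds much the same motif and, in mouse macrophages, has been tied to the response to interleukin 4. It ran the other way. Its probe, at chr10:67004798-67004857 (mm9), read 0.32, −1.26 and −0.65 across F4/80high TAMs, 0.15, 1.28 and 0.65 across F4/80low TAMs and 4.87, 5.87 and 5.61 across PECs. Every PEC array was more than 3 log2 units above every TAM array, and the TAM subsets overlapped. Egr2 was 63.0-fold lower in F4/80high TAMs than in PECs (log2 fold change −5.98, SE 0.44, limma adjusted p 7.61e-06), a fall exceeded by few genes, since 99.8% of those tested had a higher value. It was 27.1-fold lower in F4/80low TAMs than in PECs (log2 fold change −4.76, SE 0.44, limma adjusted p 3.85e-05). Between the subsets the value was −1.22 (95% interval −2.22 to −0.22, limma adjusted p 0.0624), which passed without F4/80high replicate 1 (−1.64, limma adjusted p 0.0205), without F4/80low replicate 1 (−1.49, limma adjusted p 0.0436) and among genes above background on all 9 arrays (limma adjusted p 0.0455). Egr3, the third of these zinc finger genes, read between −4.78 and −2.56 over the 9 arrays with none well above background, so no fold is given.

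Atf3 encodes a stress-induced leucine zipper factor that restrains cytokine genes after toll-like receptor signals in mouse macrophages. Its probe, at chr1:192994547-192994606 (mm9), read 4.14, 3.66 and 3.11 across F4/80high TAMs, 3.30, 4.27 and 3.79 across F4/80low TAMs and 6.18, 6.74 and 6.87 across PECs. PECs were highest on all 3 arrays, and the TAM subsets overlapped throughout. Atf3 was 7.77-fold lower in F4/80high TAMs than in PECs (log2 fold change −2.96, SE 0.33, limma adjusted p 8.50e-05). It was 7.00-fold lower in F4/80low TAMs than in PECs (log2 fold change −2.81, SE 0.33, limma adjusted p 0.000159). The subsets differed by −0.15 (95% interval −0.90 to 0.60, limma adjusted p 0.765).

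Ier3, also known as IEX-1, is induced through NF-kappaB and protects some cells from death. Its probe, at chr17:35959528-35959587 (mm9), read 4.32, 4.18 and 4.86 across F4/80high TAMs, 3.42, 2.03 and 3.43 across F4/80low TAMs and −1.79, −0.07 and −1.19 across PECs. The groups did not overlap and ran in the order F4/80high TAMs, F4/80low TAMs, PECs. Ier3 was 44.1-fold higher in F4/80high TAMs than in PECs (log2 fold change 5.46, SE 0.49, limma adjusted p 2.27e-05). In F4/80low TAMs it was 15.7-fold higher than in PECs (log2 fold change 3.97, SE 0.49, limma adjusted p 0.000201), or 2.56 on the log2 scale with normexp. Between the subsets it was 2.81-fold higher in F4/80high TAMs (log2 fold change 1.49, SE 0.49, limma adjusted p 0.0437), and with the replicate number as a block this did not pass (limma adjusted p 0.0666), nor with quantile normalization (1.26, limma adjusted p 0.0871) or no filter on dim probes (limma adjusted p 0.110). It was also lost when any of F4/80high replicates 1, 2 and 3 or F4/80low replicate 2 was left out, with F4/80low replicate 2, the lowest of its group, moving it furthest (1.03, limma adjusted p 0.132).

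Replicate spread was taken over genes above background on all 3 arrays of a group. The median SD was 0.52 for F4/80high and 0.49 for F4/80low TAMs over all 9 members, and 0.35 for PECs over 8, with Egr1 left out there. The medians over all genes above background in the same groups were 0.20, 0.27 and 0.22. Within F4/80high TAMs, replicate 1 was the highest array for 7 of the 9, all but Jun and Ier3, and for 43.9% of all genes. Replicate 2 was the highest F4/80low array for 5 of the 9 and for 30.3% of all genes. PEC replicate 1, the array that shares a slide with the TAMs, was the lowest PEC array for 7 of the 9 and for 46.4% of all genes, the exceptions being Fosb and Junb. The Egr1 reading among those 7 was not above background.

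The members were compared with each other by their levels over the 9 arrays. Levels were not scaled, so the measure depends on how much a gene varied as well as on the shape of its pattern. The SD over the 9 arrays was 0.79 for Fos, 0.82 for Jun, 0.96 for Jund and 1.13 for Junb. It was 1.29 for Fosb, 1.50 for Atf3, 2.52 for Ier3 and 2.79 for Egr2. A larger difference therefore does not mean a less similar shape. With each gene centred on its own mean, the root mean square difference between members was smallest for Jun and Jund (0.65) and for Fos and Jun (0.68), and was 0.75 for Atf3 and Jund, 0.91 for Fosb and Junb and 1.29 for Egr2 and Atf3. Egr1 is left out of this comparison because its PEC readings were not above background. Other genes on the array came nearer by the same measure. Fhod1 (0.17) and Nudt8 (0.28) were nearest to Fos, Gm16062 (0.19) and Nabp1 (0.20) to Jun, and Abhd14b (0.14) and Pnkd (0.20) to Jund. Creg1 (0.26) and Rcbtb2 (0.27) were nearest to Atf3. Lrrc32 (0.39) and Ak8 (0.53) were nearest to Egr2, and Acoxl and Gpr84 (both 0.49) to Ier3. Junb lay nearest to Ppp4r2 (0.24) and Fosb to Prl3b1 (0.36), each followed by a transcript that the files do not name (0.25 and 0.37). These are the smallest distances among all genes tested and describe the 9 arrays only.

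Relatives of AP-1 and ATF factors can pair with the members. Of 17 such relatives, all tested, 6 were higher and 3 lower in F4/80high TAMs than in PECs (median log2 fold change −0.17), 5 higher and 2 lower in F4/80low TAMs than in PECs (median 0.30), and 5 higher and 3 lower in F4/80high than in F4/80low TAMs (median 0.20). Over all genes, 25% were higher and 28% lower in F4/80high TAMs than in PECs, 22.7% and 29.2% in F4/80low TAMs than in PECs, and 18.6% and 14% in F4/80high than in F4/80low TAMs, with medians of 0.00, −0.09 and 0.08. Jdp2, a Jun dimerisation partner that represses AP-1 targets, averaged 6.70 ± 0.29 in F4/80high TAMs, 6.89 ± 0.16 in F4/80low TAMs and 1.46 ± 0.24 in PECs (SD, n = 3 each). It was 37.6-fold higher in F4/80high TAMs than in PECs and 43.2-fold higher in F4/80low TAMs than in PECs (limma adjusted p 2.32e-07 and 3.25e-07). Batf2 and Batf, short leucine zipper factors that pair with Jun proteins, were highest in F4/80high TAMs. Batf2 averaged 6.40 ± 0.05 in F4/80high TAMs, 3.06 ± 1.00 in F4/80low TAMs and 1.57 ± 0.31 in PECs, 10.2-fold higher in F4/80high than in F4/80low TAMs (limma adjusted p 0.000452). Batf was 6.58-fold higher in that comparison (limma adjusted p 0.000960). Fosl2, the Fos relative Fra-2, followed the pattern of Fos, at 2.45 ± 0.71 in F4/80high TAMs, 5.14 ± 0.16 in F4/80low TAMs and 2.78 ± 0.33 in PECs. It was 6.45-fold lower in F4/80high than in F4/80low TAMs (log2 fold change −2.69, limma adjusted p 0.000408), or −1.67 as the mean of its probes. Batf3, a factor of dendritic cells, was 4.81-fold lower in F4/80low TAMs than in PECs (log2 fold change −2.27, limma adjusted p 0.00271), with −1.30 under normexp. In F4/80high TAMs Batf3 was 4.24-fold lower than in PECs (limma adjusted p 0.00376).

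Partners of the EGR factors and of serum response factor were counted next. Of the 8 of 9 listed genes that were tested, 1 was higher and 5 lower in F4/80high TAMs than in PECs (median −0.86), 1 higher and 3 lower in F4/80low TAMs than in PECs (median −0.40), and 2 higher and 1 lower in F4/80high than in F4/80low TAMs (median 0.03). The shares of all genes in the same order were 25% and 28%, 22.7% and 29.2%, and 18.6% and 14%, higher and lower, with medians of 0.00, −0.09 and 0.08. Egr4 was not above background in any group. Mrtfb and Mrtfa, coactivators of serum response factor, fell in both subsets. Mrtfb averaged 1.71 ± 0.12 in F4/80high TAMs, 1.59 ± 0.56 in F4/80low TAMs and 4.69 ± 0.04 in PECs, and was 7.91-fold lower in F4/80high TAMs than in PECs and 8.59-fold lower in F4/80low TAMs than in PECs (limma adjusted p 1.77e-05 and 1.99e-05). Nab1 and Nab2 encode corepressors that bind EGR proteins. Nab1 was 4.33-fold higher in F4/80high TAMs than in PECs (limma adjusted p 3.39e-05) and 2.51-fold higher in F4/80low TAMs (limma adjusted p 0.000685). Nab2, itself a known target of EGR factors, was 5.81-fold lower in F4/80low TAMs than in PECs (limma adjusted p 3.25e-05) and 3.09-fold lower in F4/80high TAMs (limma adjusted p 0.000332). Srf was 1.84-fold lower in F4/80high than in F4/80low TAMs (limma adjusted p 0.0129), a difference that did not pass as the mean of its probes (limma adjusted p 0.121) or with median centring (limma adjusted p 0.179).

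The list of other early response genes was the longest. Of 31 tested of 32 listed, 19 were higher and 8 lower in F4/80high TAMs than in PECs (median 0.90), 18 higher and 6 lower in F4/80low TAMs than in PECs (median 1.50), and 10 higher and 9 lower in F4/80high than in F4/80low TAMs (median 0.31). Among all genes 25% were higher and 28% lower in the first of these comparisons, 22.7% and 29.2% in the next, and 18.6% and 14% in the last. Ptgs2, which makes prostaglandin precursors as cyclooxygenase 2, was not well above background in PECs. Ptgs2 was at least 186-fold higher in F4/80high TAMs and at least 21.1-fold higher in F4/80low TAMs than in PECs (limma adjusted p of the fitted values 2.74e-08 and 2.10e-07). It was 8.83-fold higher in F4/80high than in F4/80low TAMs (limma adjusted p 2.42e-05). With normexp its fitted log2 fold changes against PECs were 5.29 and 2.39, both past the threshold. Nfkbia, the inhibitor through which NF-kappaB limits itself, averaged 9.44 ± 0.21 in F4/80high TAMs, 8.27 ± 0.20 in F4/80low TAMs and 4.17 ± 0.16 in PECs, 38.7-fold higher in F4/80high TAMs than in PECs (limma adjusted p 1.59e-07). Errfi1, a feedback inhibitor of the EGF receptor, was 33.6-fold higher in F4/80high TAMs than in PECs and 9.33-fold higher than in F4/80low TAMs (limma adjusted p 1.53e-06 and 7.37e-05). The orphan nuclear receptor Nr4a1 was 25.7-fold higher in F4/80low TAMs than in PECs (limma adjusted p 0.000263) and 5.89-fold higher in F4/80high TAMs (limma adjusted p 0.00635). Nfkbiz, a nuclear cofactor of NF-kappaB, was above background on 2 of 3 PEC arrays. It was 17.7-fold higher in F4/80low TAMs than in PECs (limma adjusted p 3.62e-05), or 2.14 on the log2 scale with normexp. In F4/80high TAMs it was 30.5-fold higher than in PECs (limma adjusted p 9.75e-06). Plk3, a stress-response kinase, was 5.28-fold lower in F4/80high than in F4/80low TAMs (limma adjusted p 0.000634).

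**Figure D3:**
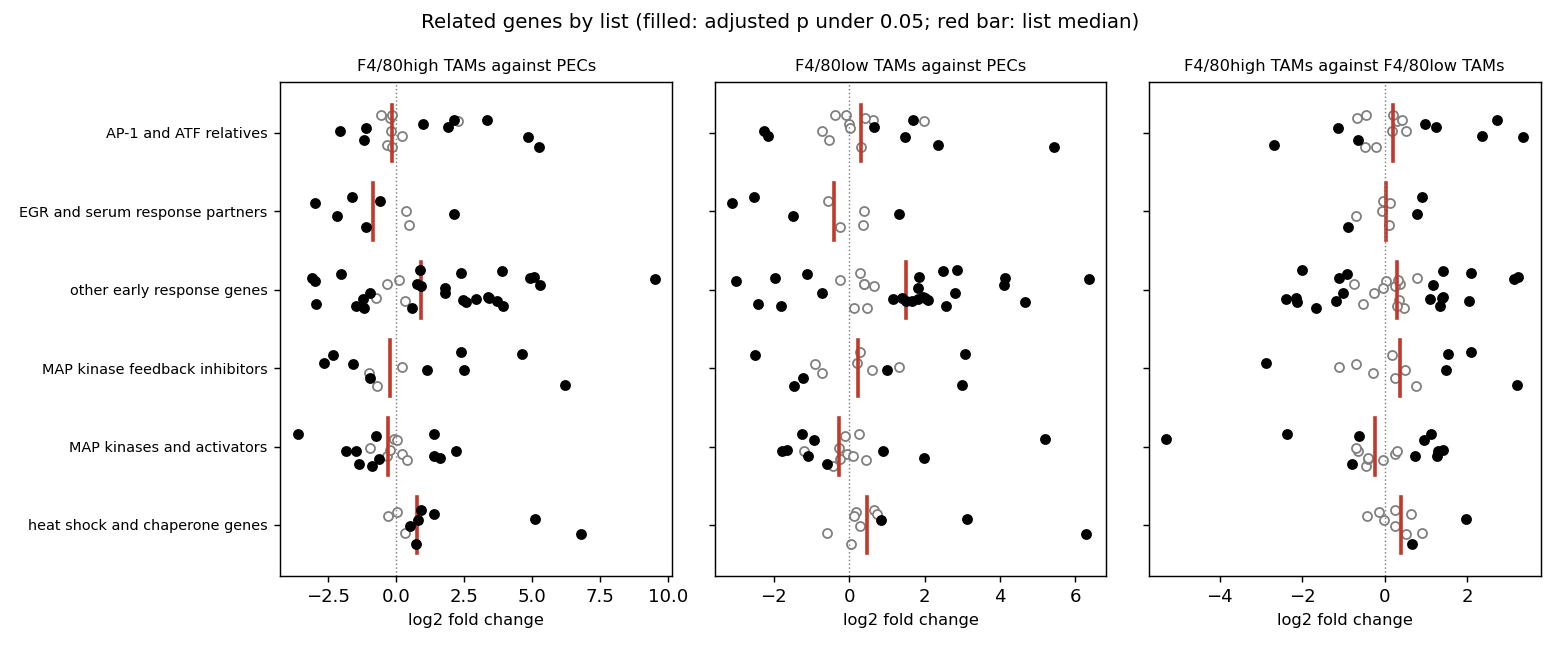
Log2 fold change (horizontal axis) of each tested gene of 6 lists of related genes, in 3 comparisons, with the list median as a red bar and filled points for an adjusted p under 0.05. The point farthest to the right is Ptgs2 in F4/80high TAMs against PECs, a fitted value for a gene that was not well above background in PECs. Vertical position within a list carries no meaning.

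MAP kinase feedback inhibitors are themselves induced by the pathway they limit. Of 12 tested of 15 listed, 5 were higher and 4 lower in F4/80high TAMs than in PECs (median −0.25), 3 higher and 3 lower in F4/80low TAMs than in PECs (median 0.24), and 4 higher and 1 lower in F4/80high than in F4/80low TAMs (median 0.38). Set beside all genes (25% and 28%, 22.7% and 29.2%, 18.6% and 14%, higher and lower), the F4/80low counts against PECs lay near the background. Dusp2, a phosphatase that switches off nuclear MAP kinases, averaged 7.85 ± 0.40 in F4/80high TAMs, 4.65 ± 0.49 in F4/80low TAMs and 1.66 ± 0.14 in PECs. It was 73.1-fold higher in F4/80high TAMs and 7.96-fold higher in F4/80low TAMs than in PECs (limma adjusted p 5.21e-07 and 3.96e-05), and 9.18-fold higher in F4/80high than in F4/80low TAMs (limma adjusted p 7.61e-05). Dusp1, itself an early response gene that stands in both lists, was 4.24-fold higher in F4/80high than in F4/80low TAMs (limma adjusted p 0.00154). Dusp5, a phosphatase of ERK, was not well above background in PECs. It was at least 12.5-fold higher in F4/80high TAMs and at least 4.35-fold higher in F4/80low TAMs than in PECs. The fitted values had limma adjusted p of 9.83e-06 and 0.000143, with fitted log2 values of 1.73 and 0.87 under normexp. Dusp4 ran against the others, 7.33-fold lower in F4/80high than in F4/80low TAMs (log2 fold change −2.87, limma adjusted p 0.00118) and −1.65 with normexp. Dusp8 was not well above background in either TAM subset, and was at least 2.35-fold lower in F4/80low TAMs than in PECs. The fitted value had a limma adjusted p of 0.000204, with a fitted log2 value of −0.38 under normexp. The sprouty genes Spry2 and Spry4 were not above background in any group.

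Among MAP kinases and their activators, 18 of 22 listed genes were tested. Against PECs, 4 were higher and 7 lower in F4/80high TAMs (median −0.30) and 3 higher and 6 lower in F4/80low TAMs (median −0.26), and 6 were higher and 4 lower in F4/80high than in F4/80low TAMs (median −0.22). Of all genes 25% were higher and 28% lower than in PECs for the F4/80high subset, 22.7% and 29.2% for the F4/80low subset, and 18.6% and 14% between the subsets. Map3k8, the kinase that links toll-like receptors to ERK, was 4.56-fold higher in F4/80high TAMs than in PECs (limma adjusted p 0.000194). Map2k3, an activator of p38, was 3.97-fold higher in F4/80low TAMs than in PECs (limma adjusted p 1.73e-05), and Mapk3, which encodes ERK1, was 3.41-fold lower there (limma adjusted p 0.00215). In F4/80high TAMs Map2k3 and Mapk3 averaged 3.13 and 4.07, against 1.54 and 5.54 in PECs. Map2k6, the other p38 activator, was not well above background in F4/80high TAMs and at least 3.39-fold lower there than in PECs. The fitted value had a limma adjusted p of 7.53e-06, with a fitted log2 value of −0.68 under normexp. Mapk13, the delta form of p38, was above background on all F4/80low arrays, none of F4/80high TAMs and 1 of 3 of PECs. It was at least 15.8-fold lower in F4/80high than in F4/80low TAMs (limma adjusted p of the fitted value 0.00200). Under normexp the log2 value was 0.378 times as large (limma adjusted p 0.0251). Rps6ka1, a kinase downstream of ERK, was 3.58-fold lower in F4/80high TAMs than in PECs (limma adjusted p 0.0132), a log2 fold change of −1.84. Under the slide block it was −2.07, with a wider error (limma adjusted p 0.0682). Its relative Rps6ka3 was 2.66-fold higher in F4/80high than in F4/80low TAMs (limma adjusted p 0.000244).

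Heat shock and chaperone genes, which cells raise on heat and protein damage, were also followed. Of 10 on the array, all tested, 7 were higher and 0 lower in F4/80high TAMs than in PECs (median 0.76), 3 higher and 0 lower in F4/80low TAMs than in PECs (median 0.47), and 2 higher and 0 lower in F4/80high than in F4/80low TAMs (median 0.39). Of all genes 22.7% were higher and 29.2% lower in F4/80low TAMs than in PECs. For F4/80high TAMs 25% of all genes were higher and 28% lower than in PECs, and between the subsets 18.6% and 14%. Their summed level, on the linear scale, ranged from 1439 to 1581 in F4/80high TAMs, from 1009 to 1282 in F4/80low TAMs and from 823 to 980 in PECs. Hspa1a, the inducible form of HSP70, averaged 5.05 ± 0.13 in F4/80high TAMs, 4.54 ± 0.69 in F4/80low TAMs and −1.74 ± 0.42 in PECs. It was 111-fold higher in F4/80high TAMs and 77.5-fold higher in F4/80low TAMs than in PECs (limma adjusted p 9.36e-07 and 2.17e-06). Hspb1, a small heat shock protein, was 34.4-fold higher in F4/80high TAMs and 8.80-fold higher in F4/80low TAMs than in PECs (limma adjusted p 2.81e-05 and 0.000650), and 3.91-fold higher in F4/80high than in F4/80low TAMs (limma adjusted p 0.0118). The smaller changes were in Dnaja1, 2.61-fold higher in F4/80high TAMs than in PECs (log2 fold change 1.38, limma adjusted p 0.00504, and 1.48 with adjusted p 0.0627 within slide 1 alone), and Dnajb1, 1.78-fold higher in F4/80low TAMs than in PECs (log2 fold change 0.83, limma adjusted p 0.0238). With slide as a block Dnajb1 was 0.91 (limma adjusted p 0.109), and with median centring it was 0.36 (limma adjusted p 0.373). It also missed the threshold without F4/80low replicate 3 (0.55) and without PEC replicate 1 (0.79) or 2 (0.82). The part of the heat shock response in the levels of the immediate early genes was not tested.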

How the data were processed

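The authors deposited 1 scanner file per array with linear spot intensity from Agilent Feature Extraction 10.5.1.1, per the file headers, background-subtracted by that software. They also deposited a table of log2 values for 9703 probes, with no stated normalization, which tracks the log2 mean signal and served as an alternative. The log2 of processed intensity was taken, minus each array's 75th percentile of non-control spots. Control spots and outlier-marked spots were left out, spots of a probe averaged, and a probe kept when well above background on all 3 arrays of a group (21194 probes). The brightest probe stood for its gene, and 26413 probes took their symbol from the reference table by accession. Exon annotation was not used here.

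The 16461 genes were compared with limma 3.58.1 in R 4.3.3, all 9 arrays in a single fit, checked on simulated data. A gene not well above background on any array of a group is given as a bound against that array's dimmest signal well above background. This limit is shared by all probes and is not that of the single probe, so a bound holds for the processed intensities only. With normexp the fitted changes of the named genes given as bounds were smaller than the bounds. An adjusted p given with a bound is that of the fitted value, which uses the readings at background. Such a gene entered through another group, so its call was partly set by the filter. The members and gene lists were chosen with earlier results of these data known. Named genes were the members, up to 3 of the largest changes past the threshold per list and comparison, Adgre1, and the 2 nearest genes per member, except for Egr1, whose PEC readings were background. Naming a gene under a comparison does not mean that it differed there only. PEC replicates 2 and 3 lie on slide 2, and the other 7 arrays on slide 1. Residuals of same-numbered F4/80high and F4/80low arrays correlated across genes at 0.23, 0.17 and 0.13, and of differently numbered ones at −0.17 to 0.02. The numbers were therefore taken as a possible pairing of the subsets. Residuals cancel over the arrays of a group, so positive values for same-numbered arrays force negative ones among the rest on average. The lower range is thus no separate evidence for a pairing. Differently numbered F4/80high and PEC arrays reached 0.13 as well. The main fit holds no block for a pairing, and the replicate block, an alternative, was fitted on all 9 arrays with the PECs included. Precision is limited by the number of arrays, with a median SE of 0.24 for a log2 fold change.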

Additional observations from a re-analysis of the deposited data

Results flagged for a closer look

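The difference from the shared PECs was not the same in the TAM subsets for 5 genes, by limma's test of F4/80high against F4/80low TAMs. Fos differed by −1.59 on the log2 scale between the subsets, with log2 fold changes against PECs of −0.45 for F4/80high TAMs and 1.14 for F4/80low TAMs. Jun differed by −1.49, with −1.53 for F4/80high TAMs and −0.05 for F4/80low TAMs. Junb differed by 1.14, being higher than PECs in both, by 2.49 for F4/80high TAMs and 1.35 for F4/80low TAMs. Jund differed by −0.91, and Ier3 by 1.49, and both lost the call with the replicate number as a block. The PEC arrays cancel in each of these differences. Groups of 3 arrays are too small for a test of single arrays.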

How the results depend on the processing

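Of 526 values of the members under 23 alternatives, 482 kept their direction and side of the threshold, 28 lost the call, 6 gained it and 10 changed sign. One alternative, genes above background on all arrays of both groups compared, was chosen after seeing the data. Leaving out 1 array gave 8 to 9 members called in F4/80high TAMs against PECs (7014 to 8570 genes), 7 to 8 in F4/80low TAMs against PECs (6603 to 8467 genes) and 3 to 6 between the subsets (3914 to 4976 genes). The lowest of these, 3, came without F4/80high replicate 2 or 3 or F4/80low replicate 2. Between the subsets 3 members were also called with no filter on dim probes and with the replicate block. That block changed no other call of a member. Within slide 1 alone, 4894 genes were called in F4/80high TAMs against PECs and 4127 in F4/80low TAMs against PECs, where 5 members passed, and with slide as a block 5631 and 4904. With no filter, 14388 of 36492 genes were called in F4/80low TAMs against PECs, against 8540.

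The values that changed sign were not called in any setting. Jun in F4/80low TAMs against PECs was 0.014 with quantile normalization, 0.32 both within slide 1 and with the slide block, and from −0.23 to 0.12 on leaving out an array. Between the subsets, Atf3 was 0.16 and Fosb 0.024 with median centring, and leaving out an array gave −0.40 to 0.11 for Atf3 and −0.57 to 0.11 for Fosb. Adgre1 in F4/80high TAMs against PECs was −0.085 with normexp, −0.13 with quantile normalization, −0.11 with median centring, −0.015 as the mean of its probes and −0.059 in the deposited table, and −0.084 to 0.20 on leaving out an array. Median centring moved the median of all genes by −0.16 in F4/80high TAMs against PECs, −0.47 in F4/80low TAMs against PECs and 0.32 between the subsets. The share of higher calls then became 22.1% in place of 43.8% in F4/80low TAMs against PECs and 75.9% in place of 57.1% between the subsets. Among the members, some log2 fold changes against PECs shrank by over 1.5 times with normexp. They were those of Egr1 and Fosb in both subsets and of Junb and Ier3 in F4/80low TAMs. Other named genes, Ptgs2 and Dusp5 among them, shrank by over 1.5 times as well.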
